A study of Arabidopsis thaliana with 11 samples.

Results

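AGL36 (AT5G26650), AGL34 (AT5G26580), AGL90 (AT5G27960), PHE1 (PHERES1, AT1G65330), PHE2 (AT1G65300), AGL23 (AT1G65360) and AGL62 (AT5G60440) are type I MADS-box genes, which encode DNA-binding transcription factors. These 7 of 37899 annotated nuclear genes were chosen by name, and each was examined from 2 kb upstream of its start to 2 kb past its end, a stretch called its window here. The gene AT5G27950, which lies beside AGL90 and is annotated as a P-loop NTPase with microtubule motor activity, was examined in the same way. The question was where ACD15, ACD21 and MBD6 were called at these genes.

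Chromatin immunoprecipitation followed by sequencing had been done on inflorescences of soil-grown Arabidopsis thaliana of the Col-0 ecotype. Wild-type plants carried an ACD15.5-3XFLAG or an ACD21.4-3XFLAG transgene, with 2 libraries each, here ACD15-FLAG and ACD21-FLAG. An MBD6-RFP transgene was carried by wild-type plants and by acd15 acd21 double mutants, again with 2 libraries each. Each of these 8 libraries has its own peak list. The labels put the FLAG libraries in batch 1 and the RFP libraries in batch 2, so tag and batch cannot be told apart. They give anti-FLAG as the antibody throughout, also where a title of batch 2 says RFP, and they do not name the promoters of the transgenes, whether a line is a single insertion, or whether replicates came from separate plants. The 3 libraries without a transgene (1 FLAG and 2 RFP controls) were not examined here, though the merged ACD15 and ACD21 lists are labelled as minus Col-0. A merged list of MBD5 and MBD6 broad regions, made from wild-type libraries outside this series, and merged lists of ACD15 and of ACD21 were used beside the library lists.

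Type I MADS proteins act mainly in the female gametophyte, the embryo and the endosperm, the tissue that feeds the embryo in a seed. Several of their genes are imprinted in the endosperm: AGL36 is expressed from the maternal copy, with DNA methylation involved, and PHE1 from the paternal copy, with Polycomb silencing of the maternal copy and a methylated repeat downstream of the gene. AGL62 holds back the cellularization of the endosperm, and AGL23 is needed for the female gametophyte and the embryo. MBD5 and MBD6 bind methylated CG sites and silence a subset of methylated genes and transposons, and ACD15 and ACD21, whose alpha-crystallin domain is that of small heat shock proteins, join their complex.

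The sequences below are 121 bp centred on called summits, the positions of highest enrichment within a region. They show what the called sites at related genes share and how they differ in CG sites, the sites at which MBD proteins read methylation. Each is given 5′ to 3′ in the direction of transcription of its gene, from a TAIR10.1 copy of the genome whose coordinates hold for TAIR10, with every CG in capitals.
AGL36 coding exon (chr5:9343950-9344070, + strand): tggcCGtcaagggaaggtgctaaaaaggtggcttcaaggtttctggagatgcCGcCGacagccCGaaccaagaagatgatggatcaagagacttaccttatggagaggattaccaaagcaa
AGL90 coding exon (chr5:9992502-9992622, - strand): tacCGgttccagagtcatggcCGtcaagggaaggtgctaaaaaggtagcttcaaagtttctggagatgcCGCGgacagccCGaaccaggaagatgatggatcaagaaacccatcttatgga
AGL34 upstream (chr5:9396096-9396216, - strand): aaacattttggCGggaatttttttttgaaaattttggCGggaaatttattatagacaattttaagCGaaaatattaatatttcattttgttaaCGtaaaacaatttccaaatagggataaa
AGL36 downstream (chr5:9346445-9346565, + strand): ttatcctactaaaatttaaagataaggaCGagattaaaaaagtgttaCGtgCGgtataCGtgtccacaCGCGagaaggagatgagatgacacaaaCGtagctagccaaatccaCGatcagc
AGL36 far flank (chr5:9340462-9340582, + strand): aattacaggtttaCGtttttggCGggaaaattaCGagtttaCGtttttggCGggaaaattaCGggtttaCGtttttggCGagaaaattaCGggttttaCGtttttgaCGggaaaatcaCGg
AT5G27950 start (chr5:9983848-9983968, + strand): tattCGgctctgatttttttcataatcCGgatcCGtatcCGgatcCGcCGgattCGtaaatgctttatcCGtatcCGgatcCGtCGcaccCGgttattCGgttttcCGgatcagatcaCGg

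The coding exon sequences are those under the MBD6-RFP summits of wild-type replicate 1. They were 92.3% identical over the 104 bp they share, held 4 CG sites in AGL36 and 5 in AGL90, and had 3 of these sites in common. The AGL34 upstream sequence, from ACD15-FLAG replicate 2, held 4 CG sites. The AGL36 downstream sequence, under an ACD15-FLAG summit of replicate 2, held 8. The richest sequences were the far flank of AGL36, with 12 CG sites, and the start of AT5G27950, with 15. Across 984678 windows of 121 bp along the 5 chromosomes the median was 2 CG sites. At least 15 sites occurred in 0.0989% of these windows, at least 12 in 0.67%, at least 8 in 4.81%, at least 5 in 19.0% and at least 4 in 30.0%. The numbers in the coding sequences and upstream of AGL34 were therefore common for this genome.

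The letters GGCGGGAA, picked after the sequences had been read and searched on both strands, stand in 2 of the 6 sequences, 2 times each in the AGL34 upstream and the AGL36 far flank sequences. The coding exons, the AGL36 downstream sequence and the start of AT5G27950 do not hold them. They occurred in 0.225% of the windows along the genome. Among 121 bp windows centred on all summits they occurred in 4.2% and 2.61% for ACD15-FLAG, 4.77% and 7.79% for ACD21-FLAG, in the order of the replicates. For MBD6-RFP the shares were 3.92% and 6.51% in the wild-type libraries and 2.96% and 0.495% in the acd15 acd21 libraries. The last of these is 2 of 404 windows. The motif itself contains a CG site, and the part of CG content in these shares was not tested.

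Regions were called at 3 of the 7 genes, AGL36, AGL34 and AGL90, in at least 1 library list. All 3 were called in ACD15-FLAG replicate 2, which alone reached 36.0% of all nuclear genes. The share of all genes over the 8 library lists together was not computed. PHE1, PHE2, AGL23 and AGL62 had none in any of the 8. In ACD15-FLAG replicate 1, 2 of the 7 genes had a region in their window, beside 22.3% of all nuclear genes. In replicate 2 there were 3, beside 36.0%. In ACD21-FLAG the counts were 2, beside 25.0%, and 0, beside 14.8%. For MBD6-RFP in wild type they were 2, beside 14.9%, and 0, beside 4.27%. For MBD6-RFP in acd15 acd21 they were 2, beside 18.2%, and 0, beside 1.72%. In the merged lists 3 genes met an ACD15 region, beside 36.4% of all genes, 2 an ACD21 region, beside 25.1%, and 4 an MBD5/MBD6 region, beside 45.3%. With 7 genes, each of these counts is near what the background share gives and is no result about the group. AGL36 and AGL34 lay wholly inside 1 MBD5/MBD6 region, as did 3.53% of all nuclear genes and 9.18% of the genes around them.

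**Figure D1:**
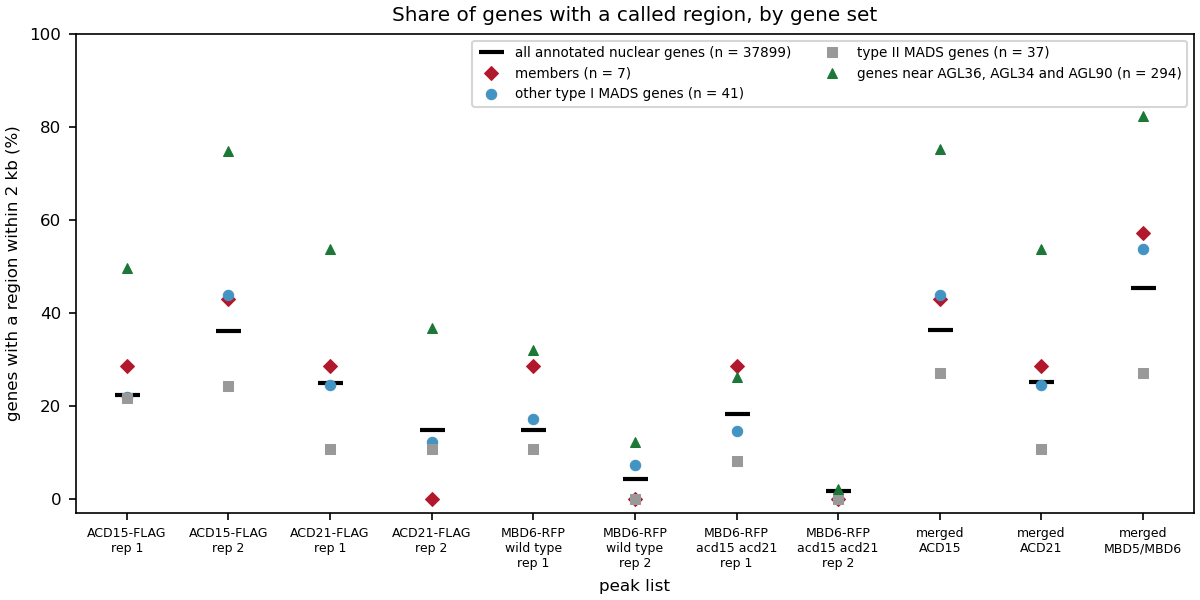
Share of genes in percent (vertical axis) with a called region within 2 kb, for each of the 8 library lists and 3 merged lists (horizontal axis), drawn for all nuclear genes, the 7 chosen genes, other type I and type II MADS genes, and genes within 250 kb of AGL36, AGL34 or AGL90. The genes near these 3 loci stand above all nuclear genes in every list, from 2.04% against 1.72% in the shortest list to 82.3% against 45.3% in the MBD5/MBD6 list.

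The genes with regions lie in a stretch of chromosome 5 where regions were frequent. Of 294 genes within 250 kb of AGL36, AGL34 or AGL90, 49.7% and 74.8% had an ACD15-FLAG region in replicates 1 and 2, and 53.7% and 36.7% an ACD21-FLAG region. In the wild-type MBD6-RFP lists the shares were 32.0% and 12.2%, and in the acd15 acd21 lists they were 26.2% and 2.04%. The MBD5/MBD6 list reached 82.3% of these genes. Around PHE1, PHE2 and AGL23 the 166 genes within 250 kb had 25.9% and 41.0% for ACD15-FLAG, and 4.22% in acd15 acd21 replicate 2, above the 1.72% of all genes. Around AGL62 the 164 genes had 12.2% and 20.7% for ACD15-FLAG. In the ACD15-FLAG lists, the called members thus lay among genes with more regions than the uncalled ones did, whereas in acd15 acd21 replicate 2 the share was higher around PHE1, PHE2 and AGL23 than around AGL36, AGL34 and AGL90.

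The windows of all 3 called genes were poor in CG sites. AGL36 had 16.6 CG sites per kb, AGL34 15.9 and AGL90 11.8, against a median of 23.3 over all nuclear genes. These densities stood at the 5.96, 4.01 and 0.301 percentiles. Among the uncalled genes AGL62 (12.0 per kb) was as poor, PHE2 (18.9) and AGL23 (17.8) stood between, and PHE1 (23.8) was near the median. CG density over the window did not separate called from uncalled members.

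**Figure D2:**
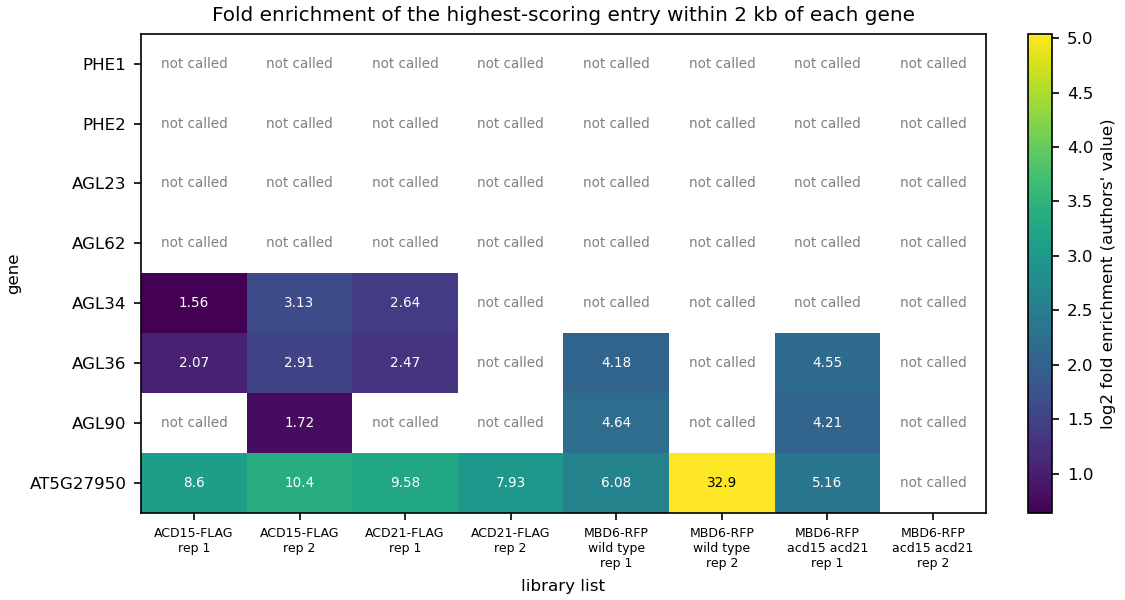
Fold enrichment of the highest-scoring entry whose region overlaps the 2 kb window of each gene (rows) in each library list (columns). Cells are coloured by log2 fold, with "not called" where a list has no region. AGL34, AGL36 and AGL90 hold folds from 1.56 to 4.64, and their neighbour AT5G27950 reaches 32.9.

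AGL36 lies on chromosome 5 at 9343785-9345011, + strand. The folds that follow are the peak caller's own values as the authors deposited them and describe regions within their list. In ACD15-FLAG replicate 1 a single region was called, at 9346342-9346675, with its summit 1494 bp past the gene end and a fold of 2.07. This summit falls in the long noncoding RNA gene AT5G04245, a downstream neighbour. In ACD15-FLAG replicate 2 there were 5 regions. The downstream summit stood at the same base, with a fold of 2.91. The other 4 summits lay 1717 bp upstream of the start (fold 2.36), 754 bp upstream (2.82), and 184 and 593 bp into the coding exon (1.75 and 1.93). The replicates thus shared the downstream site, and the coding and upstream sites were called in replicate 2 only, the list with 10946 regions against 5661.

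ACD21-FLAG replicate 1 held 2 regions in the AGL36 window, with summits 1695 bp upstream (fold 2.23) and 1560 bp past the end (2.47). Both regions overlap those of ACD15-FLAG replicate 2. ACD21-FLAG replicate 2 held none, and neither ACD21-FLAG library had a region in the gene body. The MBD6-RFP regions in the window, in contrast, lay at the start of the gene body. Wild-type replicate 1 had 1 region, at 9343755-9344359, with the summit 225 bp into the coding exon and a fold of 4.18. In acd15 acd21 replicate 1 the region was 9343757-9344147, with the summit at 188 bp and a fold of 4.55. These folds stood at the 33.2 and 57.2 percentiles of their lists by score, so the site was ordinary in both. Replicate 2 of either genotype had no region in the window.

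The merged MBD5/MBD6 region at AGL36 ran over 7254 bp, from 9340037 to 9347290, and covered the whole gene. It was wider than 99.2% of regions in that list, whose median width was 749 bp. It also held a site that lies outside the 2 kb window and was seen only when regions up to 3 kb from the gene were listed. This far flank had its summit between 3201 and 3286 bp upstream of the start. Its folds were 4.18 and 7.02 for ACD15-FLAG, and 8.61 and 5.88 for ACD21-FLAG. The wild-type MBD6-RFP libraries had 27.2 and 16.3, and acd15 acd21 replicate 1 had 9.31. Replicate 2 of acd15 acd21, with 404 regions in all, did not list it. By score it stood at the 100 percentile of its list, rounded, in MBD6-RFP wild-type replicate 1 and at 96.4 in acd15 acd21 replicate 1. In wild-type replicate 2 it stood at 82.5. These lists kept 53.0%, 42.9% and 96.5% of their peak numbers in that order, so the ranks are not on a like basis. The far flank was the only site at AGL36 called in both replicates of ACD21-FLAG and of MBD6-RFP in wild type.

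At AGL36 the 2 genotypes can be set side by side in replicate 1 only. At the far flank the wild-type fold was 27.2 and the acd15 acd21 fold 9.31, and at the coding exon they were 4.18 and 4.55. With 1 library on each side there is no test of either difference or of the contrast between the sites.

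**Figure D3:**
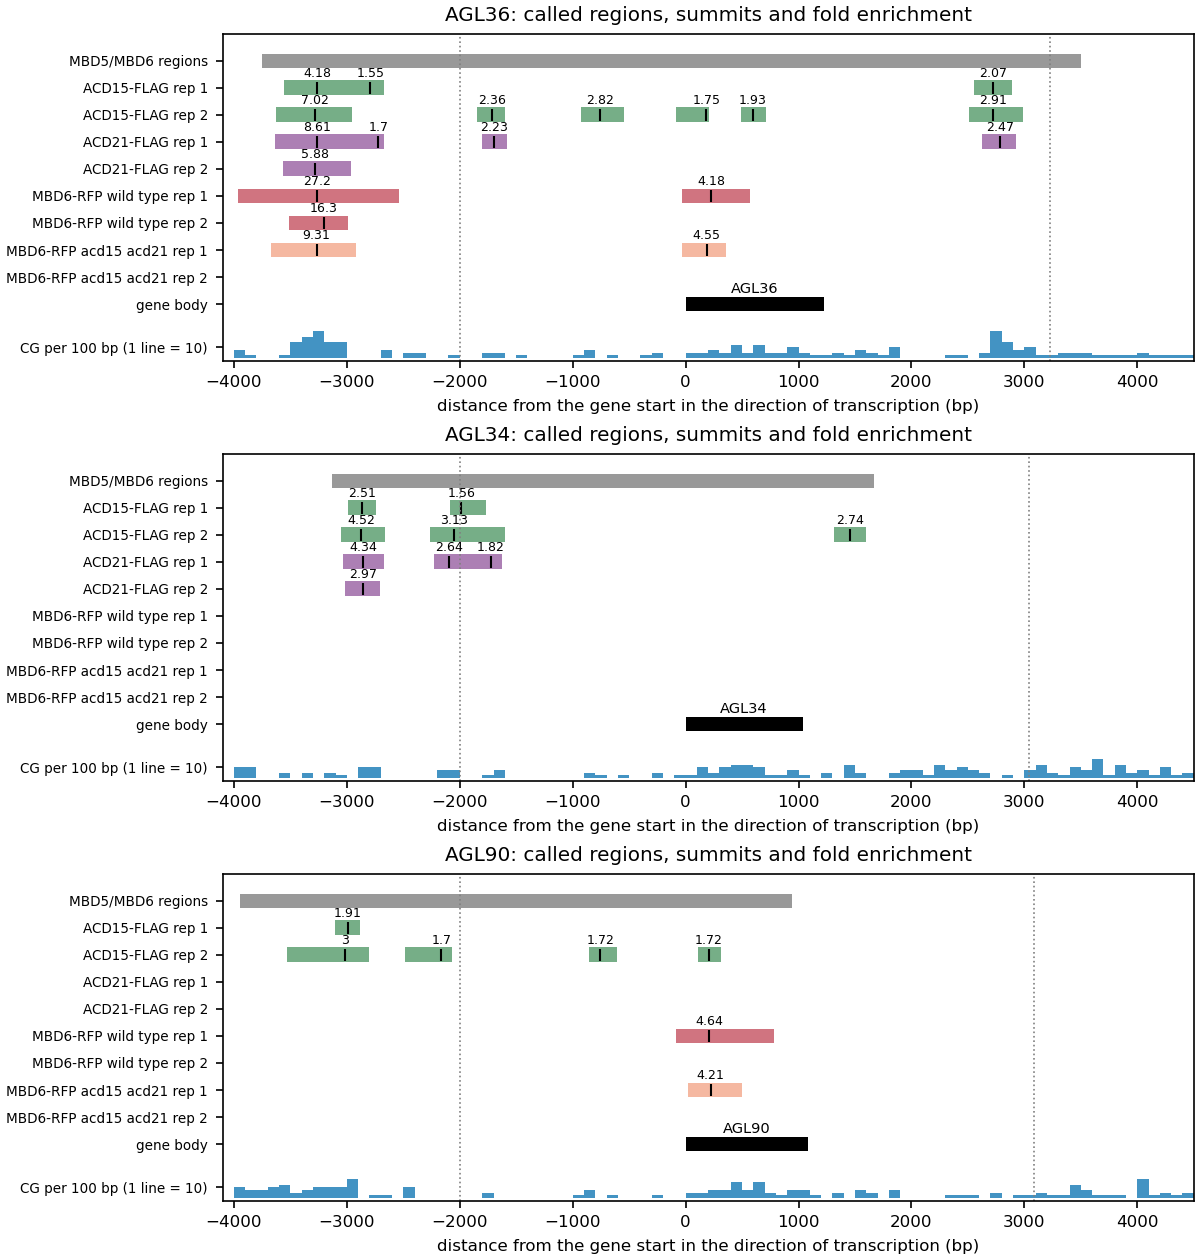
Called regions (bars), summits (ticks) and their fold (numbers) at AGL36, AGL34 and AGL90, by distance from the gene start in bp in the direction of transcription, with a line for each library list, the MBD5/MBD6 regions in grey, the gene body in black, CG sites per 100 bp at the foot (10 sites reach the height of the step between lines) and the 2 kb window between dotted lines. Within the window the MBD6-RFP regions of AGL36 and AGL90 sit at the start of the coding exon. AGL36 also has MBD6-RFP regions at its far flank, outside the window. AGL34 has FLAG regions upstream and past its end and no MBD6-RFP region.

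AGL90 lies 598 kb from AGL34 on the same chromosome, at 9991685-9992770 on the - strand. Its body was 94.9% identical to that of AGL36 over 1101 bp, and with flanks the match extended to 5338 bp at 88.3%. ACD15-FLAG replicate 2 held 2 regions there, with summits 203 bp into the coding exon and 754 bp upstream, both with a fold of 1.72. They stood at the 6.08 percentile of that list, among its weakest regions. The other 3 FLAG libraries had no region in the window. MBD6-RFP in wild-type replicate 1 had a region at 9991990-9992855, with the summit 208 bp into the coding exon and a fold of 4.64. In acd15 acd21 replicate 1 the region was 9992271-9992746, with the summit at 223 bp and a fold of 4.21. Replicate 2 of either genotype had none.

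Some sites of AGL90 sat where those of AGL36 did, and others did not. When each summit was carried to the other gene through their alignment, the MBD6-RFP summits of wild type lay 17 bp apart and those of acd15 acd21 35 bp apart. The ACD15-FLAG summits in the coding exon lay 19 bp apart and the upstream ones 6 bp. The coding exon sequences are those shown first above. Reads from near-identical copies may be placed at either gene, and the sources used here do not say how such reads were handled. Of the 50-base words in the gene body, 84.1% at AGL36 and 83.3% at AGL90 occurred once in the genome, and of 100-base words 98.9% and 98.8%. The sources used here give no read length, so the likeness of sites at the 2 genes and the sharing of reads between them cannot be told apart. Other ACD15-FLAG summits of replicate 2 had no counterpart in aligned sequence. The AGL36 summit 593 bp into the coding exon lay 390 bp from the nearest AGL90 summit of that library, at 95.0% identity. The one 1717 bp upstream lay 423 bp away, at 65.7%. The AGL90 summit 2163 bp upstream lay 377 bp from the nearest at AGL36, at 92.0%. The downstream site and the far flank of AGL36 had no aligned sequence at AGL90.

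The MBD5/MBD6 region at AGL90 ran over 4883 bp, from 9991832 to 9996714, and covered 86.5% of the gene. Farther upstream, outside the window, ACD15-FLAG had a region in both replicates, with summits 2988 and 3018 bp from the start and folds of 1.91 and 3.0, inside the pseudogene AT5G27965. Replicate 2 had a further one at 2163 bp (1.70). ACD21-FLAG had none of these.

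AGL34 lies 48.1 kb from AGL36, at 9393065-9394102 on the - strand, and its body was 85.7% identical to AGL36 over 1104 bp and 87.2% to AGL90 over 1089 bp. All its regions lay outside the gene body and came from FLAG libraries. ACD15-FLAG replicate 1 had 1 region, with the summit 1985 bp upstream of the start and a fold of 1.56. Replicate 2 had 2, with summits 2054 bp upstream (3.13) and 418 bp past the end (2.74). ACD21-FLAG replicate 1 had a single region with 2 summits, 1726 bp (1.82) and 2097 bp upstream (2.64). ACD21-FLAG replicate 2 and all 4 MBD6-RFP libraries had none in the window. The upstream region was thus called in 3 of the 4 FLAG libraries. By score it stood at the 1.55 percentile in ACD15-FLAG replicate 1, among the weakest regions of that list. In ACD15-FLAG replicate 2 and ACD21-FLAG replicate 1 it stood at 59.7 and 57.5. The summits at 2054 and 2097 bp lie just outside the window, which their regions reach.

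Outside the window a stronger FLAG site stood 2854 to 2872 bp upstream of AGL34. It was called in all 4 FLAG libraries, with folds of 2.51 and 4.52 for ACD15-FLAG and 4.34 and 2.97 for ACD21-FLAG, and in no MBD6-RFP library. The MBD5/MBD6 region ran over 4801 bp, from 9392432 to 9397232, and held the gene and both upstream sites. AGL34 was therefore inside a region called for MBD5 and MBD6 elsewhere, while the MBD6-RFP lists of this series had nothing there. In those lists 2 peak numbers of wild-type replicate 1 and 4 of acd15 acd21 replicate 1 are missing between the listed regions around AGL34. Whether regions with these numbers lay at AGL34 is not recorded.

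Some AGL34 sites lie in sequence that also carries a site at AGL36. The 2854 and 2872 bp sites of ACD21-FLAG replicate 1 and ACD15-FLAG replicate 2 aligned 1 and 5 bp from the AGL36 summits at 1695 and 1717 bp in the same libraries, with 68.2% and 70.6% identity over 201 columns. In the other FLAG libraries, ACD15-FLAG replicate 1 and ACD21-FLAG replicate 2, the same AGL34 site aligned 1088 and 1582 bp from the nearest AGL36 summit of the same library. The 1726 bp summit of ACD21-FLAG replicate 1 aligned to the same stretch of AGL36, 4 bp from its summit, since this stretch matches AGL34 at both places. The 2054 bp summit of ACD15-FLAG replicate 2 aligned 61 bp from the 754 bp summit of AGL36, with 78.0% identity over 200 columns. The AGL34 summits 1985 bp upstream (ACD15-FLAG replicate 1), 2097 bp upstream (ACD21-FLAG replicate 1) and 418 bp past the end (ACD15-FLAG replicate 2) lay 2045, 836 and 886 bp from the nearest AGL36 summit. The coding position that carried MBD6-RFP in AGL36 also aligned to AGL34, with 71.6% identity over 201 columns, and no MBD6-RFP region was listed there. Nearly all of the AGL34 window could be told apart from the rest of the genome, with 98.7% of its 50-base words occurring once.

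AT5G27950, at 9984044-9988967 on the + strand, ends 2717 bp from AGL90 and carried higher folds within its window than the 7 genes did in theirs. At its start the main summit lay 120 to 136 bp upstream. The folds were 8.6 and 10.4 for ACD15-FLAG, 9.58 and 7.93 for ACD21-FLAG and 32.9 for MBD6-RFP in wild-type replicate 2. The region stood between the 99.8 and 100 percentiles of these 5 lists by score. A lesser summit of the same region lay 907 bp upstream in ACD15-FLAG replicate 2 (2.87) and 902 bp upstream in ACD21-FLAG replicate 1 (2.06). The region was not listed in MBD6-RFP wild-type replicate 1 or in either acd15 acd21 library. In wild-type replicate 1, 5 peak numbers are missing between the listed regions around this gene, in a stretch that reaches 49736 bp before its window, and in acd15 acd21 replicate 1 there are 2. No numbers are missing there in replicate 2 of either genotype. The wild-type replicates thus differed at this site, and how far the removal of regions accounts for it was not tested. Of the 100-base words in the AT5G27950 window 95.5% occurred once in the genome, and of those in its gene body 100%. Whether the repeated words in the flanks lie at the start summit was not tested.

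On the log2 scale the fold at AT5G27950 was 3.24 ± 0.19 (SD, n = 2) for ACD15-FLAG and 3.12 ± 0.19 (SD, n = 2) for ACD21-FLAG. The difference, ACD21-FLAG minus ACD15-FLAG, was -0.12, within the spread between replicates (exact permutation test, two-sided, p = 0.667, where 0.333 is the smallest p that 2 against 2 libraries allow). None of the 7 MADS genes was called in all 4 FLAG libraries within its window, so the same test had no value for them.

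A second AT5G27950 region lay in an untranslated exon near its end, with summits 4080 to 4149 bp from the start and 3.51 kb from AGL90 in MBD6-RFP wild-type replicate 1. ACD15-FLAG had folds of 2.07 and 2.82, ACD21-FLAG replicate 1 had 2.19, and MBD6-RFP had 6.08 in wild-type replicate 1 and 5.16 in acd15 acd21 replicate 1. This site, like the coding sites of AGL36 and AGL90, was listed for MBD6-RFP in replicate 1 of both genotypes and in replicate 2 of neither. The start summit of AT5G27950 lay 7.78 kb from the end of AGL90. Separate MBD5/MBD6 regions of 2002 and 763 bp covered the start and the second site, so the region at AGL90 was not continuous with either.

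**Figure D4:**
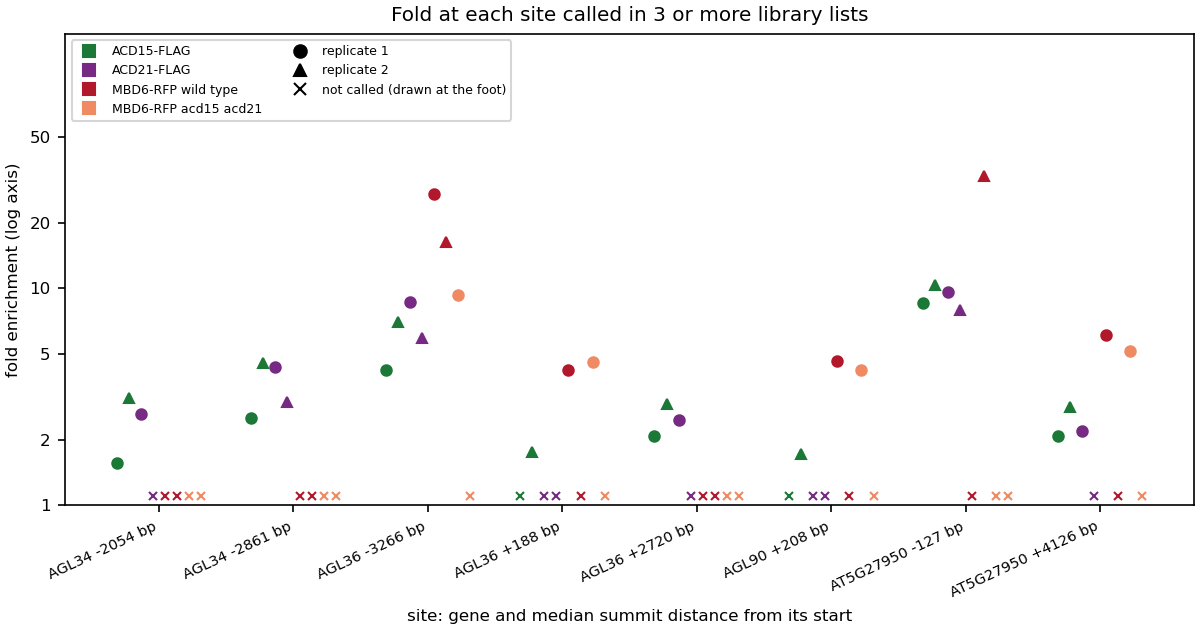
Fold enrichment on a log axis at each site called in 3 or more library lists (horizontal axis: gene and median summit distance from its start in bp), with a colour for each group, circles for replicate 1, triangles for replicate 2 and crosses at the foot for lists without the site. MBD6-RFP in wild type reaches 27.2 at the far flank of AGL36 (replicate 1) and 32.9 at the start of AT5G27950 (replicate 2). At the coding sites of AGL36 and AGL90 and the second site of AT5G27950, replicate 1 of both MBD6-RFP genotypes lies between 4.18 and 6.08. Replicate 2 of either genotype is not called at these sites.

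PHE1 lies on chromosome 1 at 24266257-24267336 on the - strand. It met no library region and 1 broad region, at 24263875-24265358, from 899 to 2382 bp past its end. This region of 1484 bp came from MBD5 alone. PHE2, its near copy 10.4 kb away at 24254929-24255857, and AGL23, 14.0 kb away on the other side at 24281337-24282233, met no region in any of the 11 lists. Around AGL23, 1 peak number of MBD6-RFP wild-type replicate 1 and 3 of acd15 acd21 replicate 1 are missing between the listed regions. In ACD15-FLAG replicate 2, 1 number is missing in the stretch that holds PHE1, PHE2 and AGL23. Whether regions with these numbers lay at these genes is not recorded. The nearest FLAG regions to PHE1 lay 15181 bp or more from the gene. The nearest MBD6-RFP regions were closer and lay in the ubiquitin gene UBQ13 between PHE1 and AGL23, 5053 bp (fold 3.47) and 8506 bp (4.68) from PHE1 in wild type, and 5160 bp (3.98) and 8561 bp (3.06) in acd15 acd21. The FLAG libraries had no region in UBQ13. At PHE2 the order was the other way. An ACD15-FLAG replicate 2 region (fold 2.77) lay 3853 bp upstream of PHE2. The nearest MBD6-RFP region to PHE2 was 10253 bp away, in acd15 acd21 replicate 1. The 50-base words of the PHE1 and PHE2 windows occurred once in the genome for 98.6% and 97.9%, so most of the sequence without calls there was unique.

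AGL62 lies alone near the end of chromosome 5, at 24305381-24307716 on the + strand, and met no region in any of the 11 lists. Between the listed regions around it, 1 peak number is missing in ACD15-FLAG replicate 1 and 1 in acd15 acd21 replicate 2. The closest listed site lay downstream of AGL62, 6313 to 6488 bp past its end, in the 4 FLAG libraries and replicate 1 of both MBD6-RFP genotypes. Its folds were 4.38 and 7.49 for ACD15-FLAG, 4.61 and 3.17 for ACD21-FLAG, 8.88 for MBD6-RFP in wild type and 4.64 in acd15 acd21. In replicate 2 the next MBD6-RFP region downstream was 141416 bp away in wild type and 553623 bp away in acd15 acd21.

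Other MADS genes were counted from lists of family members. Of 41 further type I genes, ACD15-FLAG had a region at 9 and 18, ACD21-FLAG at 10 and 5, and MBD6-RFP at 7 and 3 in the wild-type libraries and 6 and 0 in the acd15 acd21 libraries. Of 37 type II genes, the class of floral organ and flowering-time regulators, the counts were 8 and 9, 4 and 4, 4 and 0, and 3 and 0. The MBD5/MBD6 list reached 22 of the 41 and 10 of the 37. The type I counts lie near the shares of all genes given above, and those of type II at or below them.

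Both replicates of at least 1 group had a region at 9 of the 41 further type I and 7 of the 37 type II genes, or 22.0% and 18.9%, beside 23.6% of all nuclear genes. The 10 of these with the highest mean score percentile are described. AGL87, a type I gene, led with folds of 5.66 and 8.67 for ACD15-FLAG, 9.49 and 7.01 for ACD21-FLAG. Its wild-type MBD6-RFP folds were 27.8 and 25.2, and that of acd15 acd21 replicate 1 was 31.3. AGL102 was the only other one called in both MBD6-RFP wild-type libraries, with 7.38 and 4.28, and it had 5.25 in acd15 acd21 replicate 1. The type I genes AGL86, AGL61, AGL85 and AGL64 had ACD15-FLAG folds from 2.62 to 6.21 over both replicates. Of these AGL61 is needed for the central cell, the cell that gives rise to the endosperm. The type II genes were GOA, which limits fruit growth, with 5.0 and 8.46 for ACD15-FLAG, the floral regulator AGL6 with 4.8 and 7.99, SVP, a repressor of flowering, with 3.76 and 6.95, and TT16, which acts in the seed coat, with 2.31 and 4.02. Most of these summits lay beside the genes. In ACD15-FLAG replicate 1 those of AGL87, AGL102, AGL64 and SVP lay 3926, 2089, 1040 and 5611 bp from the start. These positions are past the gene ends, at lengths of 2613, 960, 558 and 4255 bp. The summits of GOA, AGL6, AGL61, AGL85 and TT16 lay upstream, and that of AGL86 lay in the gene. None of the 10 had a region in acd15 acd21 replicate 2, a list of 404 regions that reaches 1.72% of all nuclear genes.

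For each called MADS gene, the genes most like it were sought among those listed in exactly the same library lists, by the mean difference in score percentile over the lists that call both. AGL36 was called in 5 lists, a pattern held by 67 protein-coding genes with a symbol, and the closest were SUC7 (mean difference 10.6 percentile points), MYB11 (10.7) and UBC31 (11.5). AGL34 was called in 3 lists with 400 such genes, led by RPS18C (2.44), AAP5 (4.73) and ACS11 (5.11). AGL90 was called in 3 lists with 27 such genes, led by RGF4 (13.4), IQD12 (17.2) and GlcNAc1pUT1 (17.8). AGL34 had closer matches than the others among more candidates.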

How the data were processed

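The authors deposited a peak list for each of 8 chromatin immunoprecipitation libraries and 3 merged lists. The submitters' processing notes list MACS2 2.1.0, HOMER, Bowtie2, Trim Galore, Picard and deepTools 3.0.2 with the TAIR10 build, and give no settings here. The score, deposited by the authors, equals 10 times the -log10 q within a rounding of 1. The fold enrichment is a ratio from the peak caller, deposited by the authors. The -log10 values of p and q were deposited by the authors as well, and the p-values and q-values themselves were not used here. The merged lists are unions per the file headers. Those of ACD15 and ACD21 are also labelled as minus Col-0. The sources used here do not say what was removed or at which step. Regions were called per library, not on pooled replicates. Gaps in the deposited peak numbering show that 93.2% to 98.7% of numbers are left in the FLAG lists, 53.0% and 96.5% in the MBD6-RFP wild-type lists and 42.9% and 93.1% in those of acd15 acd21. The lists hold 404 to 10946 regions and no read depth, so no interval from depth can be given. Absence from a list says only that no region is listed there, since a called region may have been removed. The words "not called" and "uncalled" are used here in that sense. Around AGL36, AGL34 and AGL90 no peak numbers are missing in ACD21-FLAG replicate 2 or in MBD6-RFP replicate 2 of either genotype. Around PHE1 and PHE2 none are missing in any library list but ACD15-FLAG replicate 2. In those lists no numbered region was removed there.

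Starts were turned to 1-based positions, entries with the same start and end were joined, and an overlap of at least 1 bp counted. The reference was a TAIR10.1 copy, whose chromosomes hold all region ends; its annotation has no transposon features. Loci were aligned with blastn 2.17.0 with 4 kb of flank. Summits within 150 bp of each other were taken as 1 site. The overlap code was checked on simulated regions. Members and gene lists were chosen with earlier results of these data known. Of 57 type I and 39 type II symbols, 48 and 37 were found. Named genes were the 7 members and AT5G27950, up to 10 list genes with a region in both replicates of a group, by mean score percentile, and for each member called in 2 or more lists the 3 genes outside the windows with the same pattern and the closest percentiles. The 2 kb window, the overlap rule, the score threshold and each replicate were varied. Replicate labels do not name separate plants, so the spread between libraries may be technical. The test of a fold between ACD21-FLAG and ACD15-FLAG was planned for members called in all 4 FLAG libraries; there was none, and it was run on AT5G27950 instead.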

Additional observations from a re-analysis of the deposited data

How the results depend on the processing

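Counts of the 7 genes with a region kept within 1.5 times under a window of 3 kb, under the requirement that the summit or at least 50% of a merged region lie in the window, and under a score of at least 50. The 3 kb window and all settings for AT5G27950 were added after the data had been seen. ACD21 changed with the window: both the ACD21-FLAG and the merged ACD21 count fell from 2 to 0 with 1 kb on each side and with 1 kb upstream to the gene end, because all its regions lie more than 1 kb from the genes. Leaving out a replicate gave 2 to 3 genes for ACD15-FLAG, 0 to 2 for ACD21-FLAG, 0 to 2 for MBD6-RFP in wild type and 0 to 2 in acd15 acd21. The 0 came each time from leaving out replicate 1, since replicate 2 of these groups had no region in a member's window. The log2 difference at AT5G27950 ranged from -0.25 to 0.02 when 1 library was left out, and was above 0 without ACD15-FLAG replicate 2 (0.0194) or without ACD21-FLAG replicate 2 (0.0195). By percentile of the score it was -0.16 percentage points. Paired by replicate number as a replicate block it was -0.12 (exact sign-flip test, p = 1, smallest possible 0.5); with 2 numbers, which the labels do not tie to a shared plant or day, the samples share only a number. With no member called in all 4 FLAG libraries, the settings meant for such a member had no value. Depth is unknown, and the 2 shortest lists, with 404 and 1244 regions, are among the 3 without a call at the 7 genes.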
